A study of Mus musculus with 4 samples.

Results

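The comparison described here is that of long-term hematopoietic stem cells (LT-HSC) carrying NPMc+ together with Flt3-ITD against LT-HSC carrying NPMc+ alone. It takes the pair of libraries labelled NPMc+/Flt3-ITD and NPMc+, and keeps every barcode in them that has 1000 UMIs or more, 500 genes or more and no more than 10% mitochondrial UMIs. A UMI is a molecular barcode that marks 1 captured RNA molecule. The rule kept 5696 of the 10608 cells that pass it in all 4 libraries, 2375 from NPMc+ and 3321 from NPMc+/Flt3-ITD. The cells were sorted by flow cytometry from crushed limb and sternum marrow of C57BL/6 mice aged 8 to 11 weeks and were run on the 10x Chromium single-cell 3' platform, per the labels' protocols. The other libraries of the study are Mx, whose genotype is given as MxCRE and which is its reference control, and Flt3-ITD alone. They are used here to give each gene's level without NPMc+. MxCRE is named in the genotype of the control alone, and the labels do not say whether the mutant mice also carry it, how many animals were pooled or how long the alleles had been active. Each genotype is 1 library, so genotype and library cannot be told apart and no p-value is given.

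NPM1 is a nucleolar chaperone, and NPMc+ is the mutant form, found in acute myeloid leukaemia, that is moved to the cytoplasm. FLT3 is a receptor tyrosine kinase of early progenitors. Its internal tandem duplication (ITD) makes it signal without ligand, and it is known above all for activating STAT5 alongside the RAS-MAP kinase and PI3K-AKT routes that normal FLT3 uses. Both lesions often occur together in that leukaemia. LT-HSC sit at the top of blood formation, are mostly out of cycle, and are known by genes such as Procr, Hlf and Mecom, whereas Flt3, Cd34 and Cd48 come on as they become multipotent progenitors.

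The kept cells held 25070675 UMIs in NPMc+ and 26965367 in NPMc+/Flt3-ITD, with medians of 9466 and 7323 UMIs and 3218 and 2952 genes per cell. UMIs were summed over the cells of a library and given as counts per 1000000 UMIs of the library (CPM). Where 2 levels are set against each other as "versus", that of NPMc+ comes first, and NPMc+/Flt3-ITD is also called the library with both lesions. Ratios carry exact 95% intervals that cover counting error only. Shares of cells with a UMI of a gene were read after thinning each cell to 3000 UMIs, which left out 125 NPMc+ and 330 NPMc+/Flt3-ITD cells. The libraries had 13 barcode sequences in common, 8 of them among kept cells. Both held cells of both sexes, so each came from at least 2 animals, but in unequal parts. Cells that had Y-linked UMIs but no Xist, called male here, made up 70.0% of sexed cells in NPMc+ (1155 against 495 female) and 93.1% in NPMc+/Flt3-ITD (2425 against 179), and values for both sexes are given beside many of the results and in a paragraph of their own. Cells with both kinds of UMIs, which can be doublets or hold free RNA, made up 11.9% and 1.99%. All 10 HSC markers fixed for this work were detected in both libraries, with a summed level of 520.0 CPM for NPMc+, 212 with both lesions and 793 for Mx. The 10 markers of multipotent progenitors summed to 506 and 1843 CPM, and the 12 of T or NK cells to 522 and 1587. The 10 of B cells summed to 1285 and 195, with Pax5 at 0 in both. The 6 found of mast cells and basophils summed to 105 and 579, mostly from Cpa3, at 79.3 and 549.7 CPM. The median log2 ratio of these 6 was -0.086, with 2 of them lower by 2-fold or more and 2 higher by as much. Markers of other cell types were thus present in both libraries, and in sums over cells fewer cells of a type and less RNA per cell cannot be told apart.

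In the sum over all kept cells, most of them male among those sexed, adding Flt3-ITD to NPMc+ went with shifts in several gene groups. Cytokine feedback, progenitor, T-lineage and mast cell protease genes were higher, and stem cell, megakaryocyte, Hox and short ribosomal transcripts were lower. Of 6770 genes with at least 20 CPM in 1 library or the other, 373 were at least 2-fold higher in NPMc+/Flt3-ITD (5.51%) and 311 at least 2-fold lower (4.59%). Of these, 216 of the 373 and 136 of the 311 reached 20 CPM in 1 library only, as did 1058 of the 6770. The genes higher included Socs2, Cd48, Dntt, Tcf7, Igfbp7 and Akr1c12, and the genes lower included Apoe, Pf4, Mmrn1, Sult1a1, Meg3 and Hoxb2. The median log2 ratio of all 6770 genes was 0.22. Scaling by the trimmed mean of M values (TMM) moved it to 0.01 and turned the split into 275 higher and 394 lower, and scaling that left ribosomal protein and mitochondrial genes out of the totals gave 349 and 431. Gene lists are therefore read against 0.22, using a 1.5-fold threshold that 945 of the 6770 genes passed upward (14.0%) and 515 downward (7.61%). The median of all genes was 0.21 in male and 0.25 in female cells. In female cells the cytokine feedback (0.20), progenitor (0.22) and mast cell (0.0072) list medians were not above that of all genes. The T-lineage median (0.77) was above it, and the megakaryocyte (0.059), LT-HSC (-0.085), Hox (-0.16) and ribosomal protein (-0.71) medians were below it.

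**Figure D1:**
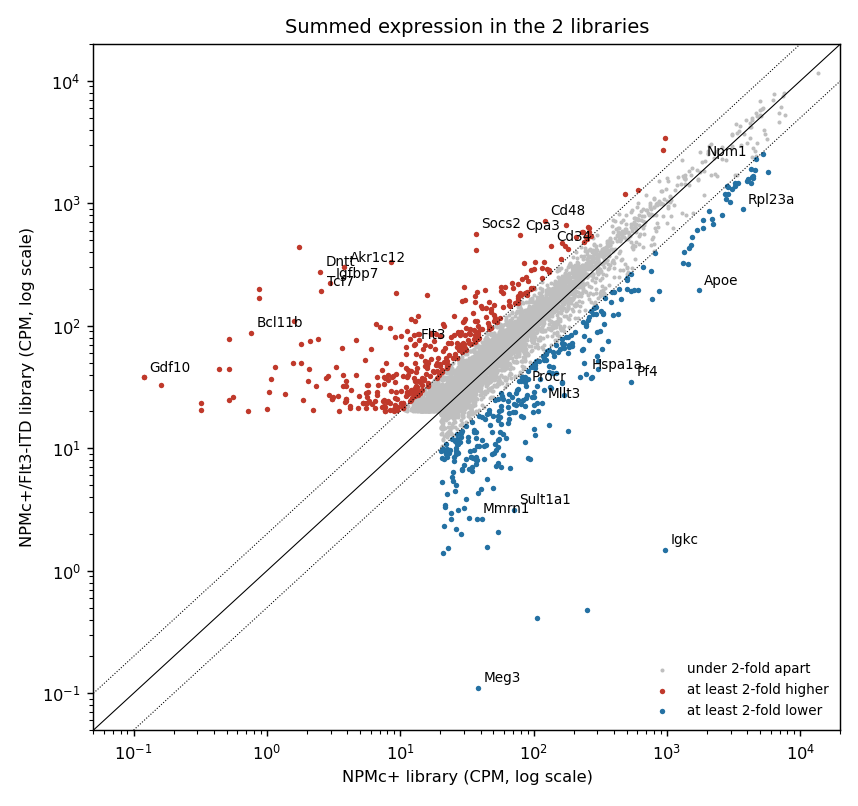
Summed expression of the 6770 genes in NPMc+ (horizontal) and NPMc+/Flt3-ITD (vertical), in CPM on log axes, 1 point per gene. The solid line is equality and the dotted lines are 2-fold apart; genes with no UMI in a library are drawn at 3 UMIs, as Gdf10 and Meg3 are. Red points (373) lie at least 2-fold above and blue points (311) at least 2-fold below, with Socs2 and Cd48 among the abundant genes above and Apoe and Rpl23a among those below.

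The addition of Flt3-ITD to control cells, the Flt3-ITD and Mx pair, shares no library with this comparison. Of the 373 genes higher here, 67 passed 2-fold upward in that pair and 8 downward, where 2.63% and 1.12% of the 6770 genes did so. Of the 311 lower here, 45 were lower and 19 higher there. Across 6769 genes with both ratios the log2 ratios had a Pearson correlation of 0.203 and a Spearman correlation of 0.119, over genes and not replicates. The median log2 ratio of all genes at the floor was -0.051 in the Flt3-ITD and Mx pair.

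Socs2, a STAT5-induced inhibitor of cytokine signalling (chromosome 10, 95385362 to 95417180, minus strand in mm10, as are all gene positions here), stood at 36.7 CPM in Mx, 36.9 CPM in NPMc+, 243 CPM in Flt3-ITD and 563 CPM with both lesions. It was low in both libraries without Flt3-ITD and high in both with it, and was 15.3-fold higher (interval 14.3 to 16.3) in NPMc+/Flt3-ITD than in NPMc+. A Socs2 UMI was found in 9.78% of NPMc+ cells and 73.0% of those with both lesions (21.3% and 85.5% without thinning). The log2 ratio was 3.83 in male and 2.95 in female cells. Dusp5, an ERK phosphatase, stood at 20.7 CPM in Mx, 37.9 CPM in NPMc+, 191 CPM in Flt3-ITD and 188 CPM with both lesions, and Osm, the cytokine oncostatin M, at 5.92, 25.4, 49.5 and 121 CPM in the same order. These were 4.97-fold higher (interval 4.63 to 5.33) and 4.75-fold higher (interval 4.36 to 5.18). Cdkn1a, which encodes the CDK inhibitor p21, stood at 18.3 CPM in Mx, 48.0 CPM in NPMc+, 192 CPM in Flt3-ITD and 136 CPM with both lesions, so it too was high in both Flt3-ITD libraries. Cish, another STAT5-induced inhibitor, differed less, at 19.1, 28.9, 41.9 and 48.8 CPM, 1.69-fold higher (interval 1.54 to 1.85). The kinase genes Pim1 and Pim2, which are STAT5 targets as well, had 491 versus 798 CPM and 40.5 versus 145 CPM, and the survival gene Bcl2 had 84.3 versus 327 CPM.

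Other targets were lower. Socs3, the feedback inhibitor linked to STAT3, had 85.6 versus 51.5 CPM, the survival gene Mcl1 199 versus 133 CPM and Pim3 42.2 versus 28.9 CPM. Ccnd1, the gene of cyclin D1, was 28.8-fold lower (interval 21.1 to 40.1), at 44.8 CPM in NPMc+ and 1.56 CPM with both lesions, with log2 ratios of -5.80 in male and -1.70 in female cells. It was lower in Flt3-ITD, at 8.28 CPM, than in Mx, at 24.4 CPM, as well. In the list of STAT5 targets and cytokine feedback, 11 of 21 members at the floor passed 1.5-fold upward and 3 downward, with a median log2 ratio of 0.60 (0.62 in male and 0.20 in female cells). In the Flt3-ITD and Mx pair 9 of the 21 passed 1.5-fold upward and 1 downward, where 4.87% and 4.90% of the 6770 genes did. The list's median there was 0.19, beside -0.051 for all genes at the floor.

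The RefSeq promoters of these genes (GRCm38.p6, 250 bases before to 50 after the start) were searched for TTCNNNGAA, where N is any base, the core of a STAT5 site, which reads the same on both strands in its fixed letters. It occurred in 8.30% of all 32851 promoters and in 6.61% of the 6776 promoters of genes at the floor. Of the 20 promoters found for 15 of the 21 measured list members, 3 held it. They are shown because Cish, Socs3 and Gfi1b belong to 1 list and yet had unlike ratios, with the core in capitals, 5' to 3' on the gene's strand.
Cish (chr9:107296409-107296708, plus strand): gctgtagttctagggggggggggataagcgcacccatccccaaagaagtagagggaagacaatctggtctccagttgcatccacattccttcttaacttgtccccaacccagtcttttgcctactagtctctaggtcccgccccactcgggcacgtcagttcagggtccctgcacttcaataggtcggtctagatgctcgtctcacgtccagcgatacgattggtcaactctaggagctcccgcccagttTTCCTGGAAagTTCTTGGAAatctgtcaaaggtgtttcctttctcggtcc
Socs3 (chr11:117969317-117969616, minus strand): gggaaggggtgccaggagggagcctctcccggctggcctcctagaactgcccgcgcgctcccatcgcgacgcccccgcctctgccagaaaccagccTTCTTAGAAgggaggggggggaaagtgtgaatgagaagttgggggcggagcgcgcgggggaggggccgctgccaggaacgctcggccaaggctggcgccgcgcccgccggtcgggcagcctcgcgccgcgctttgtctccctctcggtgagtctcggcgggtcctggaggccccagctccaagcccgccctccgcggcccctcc
Gfi1b (chr2:28621933-28622232, minus strand): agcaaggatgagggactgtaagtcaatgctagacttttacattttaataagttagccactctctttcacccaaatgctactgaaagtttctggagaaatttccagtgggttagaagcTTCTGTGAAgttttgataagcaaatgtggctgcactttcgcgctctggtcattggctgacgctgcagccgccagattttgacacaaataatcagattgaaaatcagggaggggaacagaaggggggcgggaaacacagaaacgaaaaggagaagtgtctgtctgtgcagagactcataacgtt
The Cish window holds the core 2 times, starting at bases 251 and 262, and Socs3 and Gfi1b once each, at bases 97 and 118. The log2 ratios of these genes were 0.76, -0.73 and -0.21. Dusp5 and Cdkn1a, with log2 ratios of 2.31 and 1.5, had no match in these windows. No promoter was found for Socs2, Osm or Ccnd1, so these genes were not searched.

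Among the receptors and kinases that feed this pathway, Flt3 itself (chromosome 5, 147330741 to 147400489, minus strand) stood at 29.9 CPM in Mx, 12.8 CPM in NPMc+, 31.8 CPM in Flt3-ITD and 70.9 CPM with both lesions and was 5.52-fold higher (interval 4.90 to 6.23) in NPMc+/Flt3-ITD. Its level was highest there and lowest in NPMc+. The counts carry no allele, so mutant and normal Flt3 RNA were not separated. The shared beta chain of the IL-3, IL-5 and GM-CSF receptors, Csf2rb, stood at 14.8 CPM in NPMc+ and 36.5 CPM with both lesions, and Cbl, the ubiquitin ligase that turns FLT3 over, at 28.6 versus 66.1 CPM. The transducers themselves were near the median of all genes, with log2 ratios of 0.25 for Stat5a, 0.22 for Stat5b and 0.028 for Stat3. In this list 4 of 23 members at the floor passed 1.5-fold upward and 3 downward, and its median of 0.22 (0.22 in male and 0.082 in female cells) turned to -0.0026 under TMM scaling. The log2 ratio of Flt3 was 2.83 in male and 0.52 in female cells.

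Feedback genes of the MAP kinase route were lower or near no difference. Dusp6, the ERK phosphatase that reports ERK activity, had 42.6 versus 21.9 CPM, Spry1, an inhibitor of receptor signalling to RAS, 29.0 versus 13.9 CPM, and its relative Spred1 29.4 versus 15.1 CPM. Dusp3, a phosphatase of ERK and JNK, was 4.24-fold lower (interval 3.60 to 5.01), -2.41 in male and -0.088 in female cells on the log2 scale. Dusp1 and Dusp2, the abundant nuclear phosphatases of the same family, differed by -0.10 and -0.059 on the log2 scale. Of the 8 members at the floor none was at least 1.5-fold higher and 5 were at least 1.5-fold lower, among them Ccnd1. The list's median was -0.96 (-1.09 in male and -0.067 in female cells). Of these 8, 4 reached the floor in NPMc+ or in NPMc+/Flt3-ITD but not in both. The median was also -0.96 at a floor of 10 CPM, but -0.099 at 50 CPM. With T or NK marker cells left out it was -0.37. The lower median thus rested on the less abundant members. Dusp5, which was higher, had been placed in the STAT5 list. The other 16 members, among them the remaining Spry and Etv genes, were under the floor.

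Targets of FoxO factors, which AKT keeps out of the nucleus, had a median of 0.36 (0.36 in male and 0.18 in female cells). Here 5 of 18 members at the floor passed 1.5-fold upward and 1 downward. Pik3ip1, an inhibitor of PI3K, had 109 versus 184 CPM, Ccng2, a FoxO target of resting cells, 27.3 versus 46.1 CPM, and Gadd45b 20.5 versus 37.6 CPM. Txnip, the thioredoxin inhibitor used as a mark of quiescent stem cells, was the 1 lower member, at 278 versus 182 CPM.

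**Figure D2:**
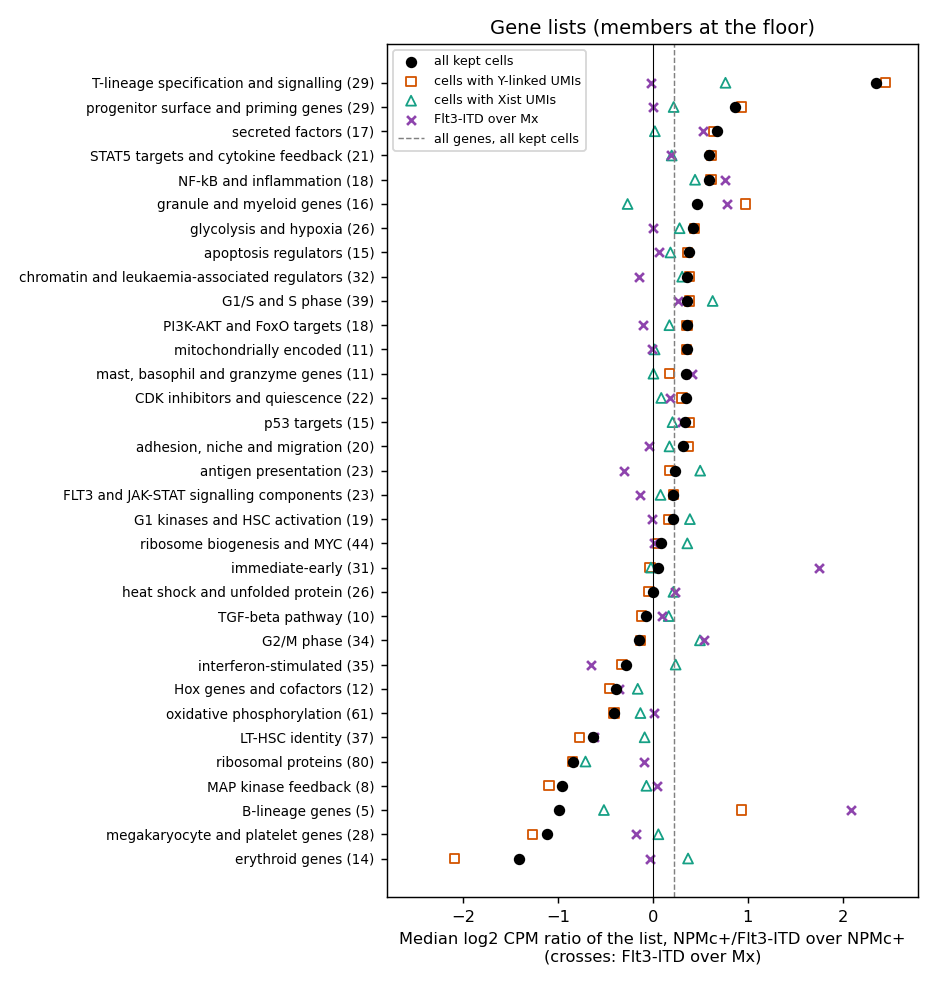
Median log2 CPM ratio of each gene list over its members at the floor (their number in brackets), NPMc+/Flt3-ITD over NPMc+ in all kept, male and female cells, with Flt3-ITD over Mx as crosses. The dashed line is the median of all genes, 0.22. The T-lineage list is highest at 2.35 and the erythroid list lowest at -1.41 in all kept cells, and both lie nearer 0 in female cells.

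Genes that mark the long-term stem cell were mostly lower with Flt3-ITD added. Procr, the endothelial protein C receptor used to sort stem cells, stood at 103 CPM in Mx, 88.0 CPM in NPMc+, 49.4 CPM in Flt3-ITD and 32.3 CPM with both lesions and was 2.73-fold lower (interval 2.52 to 2.95), -1.62 in male and -0.56 in female cells on the log2 scale. Mllt3, a chromatin reader that maintains human stem cells, had 131, 117, 52.3 and 23.4 CPM in the same order, and Mecom, the gene of the stem cell factor EVI1, 131, 90.9, 63.4 and 42.9 CPM. For all 3 the order from high to low was Mx, NPMc+, Flt3-ITD, NPMc+/Flt3-ITD. Mmrn1, the gene of the platelet and stem cell protein multimerin, was 14.1-fold lower (interval 11.1 to 18.2), at 37.7 versus 2.67 CPM, with log2 ratios of -4.78 in male and -0.97 in female cells. Vwf, which marks platelet-biased stem cells, had 21.7 versus 3.45 CPM. Slamf1, the gene of the sort antigen CD150, had 33.6 versus 9.46 CPM. Sult1a1, a sulfotransferase gene, was the furthest of the list, 22.7-fold lower (interval 18.2 to 28.5), and -5.24 in male and -1.85 in female cells on the log2 scale.

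In the LT-HSC identity list 6 of 37 members at the floor passed 1.5-fold upward and 21 downward, with a median of -0.63, -0.77 in male and -0.085 in female cells. The list's median in the Flt3-ITD and Mx pair was -0.62. Not all members shared that direction. Hlf, a factor of the stem cell state, had 115 versus 90.6 CPM, 1.27-fold lower (interval 1.20 to 1.34), and its largest step lay between Mx at 264 CPM and the other libraries. Erg had 93.1 versus 101 CPM and Kit, the stem cell factor receptor, 107 versus 106 CPM. Higher members were Mycn at 126 versus 290.1 CPM, Prdm16 at 9.33 versus 40.4 CPM, Gata3 at 29.8 versus 107 CPM and Ifitm1 at 958 versus 3435 CPM. A UMI of Procr, Hlf, Mecom or Mllt3 was found at 3000 UMIs in 77.9% of Mx cells, 60.5% of NPMc+ cells, 53.2% of Flt3-ITD cells and 38.1% of cells with both lesions. In NPMc+/Flt3-ITD it was 36.4% in male and 47.6% in female cells. Without thinning the shares of NPMc+ and NPMc+/Flt3-ITD were 84.8% and 62.0%. When only cells with such a UMI were summed, 332 of the 373 higher genes and 297 of the 311 lower genes were still at least 2-fold apart.

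HOX factors and their partners set stem cell self-renewal and are the known signature of NPM1-mutant leukaemia. None of the 12 list members at the floor was at least 1.5-fold higher here, and the other 15 were under the floor. Hoxb2 stood at 18.0 CPM in Mx, 22.9 CPM in NPMc+, 7.87 CPM in Flt3-ITD and 1.52 CPM with both lesions and was 15.1-fold lower (interval 11.0 to 21.2). Its log2 ratio was -5.24 in male and -0.34 in female cells. Hoxb4 had 27.5, 40.8, 18.1 and 11.6 CPM and Hoxa10 37.1, 65.7, 35.6 and 27.8 CPM in the same order, with NPMc+/Flt3-ITD lowest each time. Hoxa9 stood at 121 CPM in Mx, 151 CPM in NPMc+, 73.9 CPM in Flt3-ITD and 115 CPM with both lesions and Meis1, its cofactor, at 324, 245, 198 and 188 CPM, a decrease of 0.39 and 0.38 in log2 from NPMc+. Hoxa7 had 83.8 versus 82.8 CPM and Hoxa5 38.9 versus 39.4 CPM. Of the 12 members at the floor 5 were at least 1.5-fold lower, with a median of -0.39 (-0.46 in male and -0.16 in female cells). The antisense-named transcript Hoxb5os, which overlaps Hoxb5 and Hoxb6, had 33.0 versus 2.71 CPM. Whether the counting used strand is not given in the sources used here. Other named genes also overlap a gene on the opposite strand, among them Sult1a1 (Sgf29), Igfbp7 (Polr2b), Rpl23a (Tlcd1) and Eng (Fpgs), so reads of these partners may be mixed.

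Progenitor surface genes were higher. Cd48, a SLAM family receptor absent from the most primitive stem cells (chromosome 1, 171682009 to 171705258, plus strand), stood at 32.0 CPM in Mx, 121 CPM in NPMc+, 220.3 CPM in Flt3-ITD and 720.3 CPM with both lesions, a step at each mutation, and was 5.93-fold higher (interval 5.71 to 6.17) than in NPMc+. A UMI of it was found in 26.1% of NPMc+ cells and 74.6% of those with both lesions (50.9% and 86.0% without thinning). As a scale for free RNA, Hbb-bt, an adult globin gene that stem cells should lack, had a UMI in 11.5% of NPMc+ cells and 2.91% of those with both lesions (22% and 6.29% without thinning). The ratio of Cd48 was 2.65 in male and 1.36 in female cells on the log2 scale. Cd34, the sialomucin that adult mouse LT-HSC lack, stood at 233 CPM in Mx, 135 CPM in NPMc+, 327 CPM in Flt3-ITD and 448 CPM with both lesions, lowest in NPMc+, and was 3.31-fold higher (interval 3.19 to 3.44), 1.97 in male and 0.63 in female cells on the log2 scale. Sox4, a factor of early lymphoid development, had 256 versus 637 CPM, Plac8 938 versus 2709.6 CPM and the lymphoid-primed gene Emb 56.8 versus 193 CPM.

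Dntt, the DNA polymerase gene that opens lymphoid priming (chromosome 19, 41029275 to 41059525, plus strand), stood at 1.38 CPM in Mx, 2.51 CPM in NPMc+, 19.2 CPM in Flt3-ITD and 276 CPM with both lesions and was 109.8-fold higher (interval 85.7 to 143), 6.43 in male and 3.68 in female cells on the log2 scale. The level in NPMc+/Flt3-ITD was the highest of the 4 libraries, and a UMI was found in 0.489% of NPMc+ cells and 35.5% of those with both lesions (1.01% and 52.8% without thinning). Satb1, a chromatin organiser of lymphoid cells, had 5.46 versus 52.1 CPM and Ly6d 2.11 versus 74.9 CPM. Exceptions in the progenitor list were Wfdc17 at 53.6 versus 2.08 CPM, Adgrl4 at 168 versus 27.2 CPM and the B-lymphoid factor gene Bcl11a at 162 versus 94 CPM. In all 17 of 29 members at the floor passed 1.5-fold upward and 5 downward, with a median of 0.87, 0.94 in male and 0.22 in female cells, and 0.0068 in the Flt3-ITD and Mx pair.

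The furthest list was that of T-lineage genes. Tcf7, the gene of TCF1 that starts the T-cell program below NOTCH (chromosome 11, 52252371 to 52283014, minus strand), stood at 2.24 CPM in Mx, 2.55 CPM in NPMc+, 0.819 CPM in Flt3-ITD and 192 CPM with both lesions, and Bcl11b, the T commitment factor, at 1.0, 0.758, 0.682 and 87.9 CPM. Both were at or below 2.55 CPM in the other libraries. The ratio of Tcf7 to NPMc+ was 75.3-fold, with an interval of 58.8 to 97.9 since NPMc+ held 64 UMIs. Its log2 ratio was 6.06 in male and 3.96 in female cells. The T cell receptor constant genes Trbc1 (8.58 versus 330.0 CPM), Trdc (0.519 versus 77.5 CPM) and Tcrg-C1 (1.76 versus 439 CPM) went the same way, as did Tcrg-C2 and Tcrg-C4, close copies between which reads may be split. Lck, the T cell kinase, had 9.29 versus 185 CPM, Thy1 30.3 versus 206 CPM and Gata3 29.8 versus 107 CPM. Themis, a gene of thymocyte selection, had 0 UMIs in NPMc+ and 38.0 CPM in NPMc+/Flt3-ITD, at least 318-fold higher against a floor of 3 UMIs in the library. The exact lower limit of that ratio was 258-fold. Hes1, a NOTCH target, was the 1 lower member, at 20.5 versus 10.5 CPM. Here 25 of 29 members at the floor passed 1.5-fold upward and 1 downward. Of these 29, 18 reached 20 CPM in 1 library only, so the floor itself favoured wide ratios in this list. The list median was 2.35 in all cells, 2.46 in male and 0.77 in female cells. It was -0.013 in the Flt3-ITD and Mx pair, over members picked by their level in the NPMc+ and NPMc+/Flt3-ITD libraries.

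These transcripts lay in part of the library. Cells with at least 2 UMIs over Tcf7, Bcl11b, Trbc1, Trbc2, Cd3d, Cd3e and Cd3g, a cut chosen after values were seen, numbered 993 in NPMc+/Flt3-ITD (29.9%, 28.3 to 31.5%) and 13 in NPMc+ (0.547%). Another 680.0 cells of NPMc+/Flt3-ITD had 1 such UMI and 192 had exactly 2, so the border is not sharp. Their median depth was 5534 UMIs against 7941.5 in the rest of that library. They made up 32.2% of male and 6.70% of female cells. Themis, which did not enter the cut, had a UMI in 36.5% of the T core marker cells and 1.36% of the rest, and Trdc in 46.3% of the T core marker cells and 1.82% of the rest. Dntt was found in 64.1% of the T core marker cells and 24.1% of the rest, and Bcl2 in 76.1% of the T core marker cells and 34.4% of the rest. Igfbp7, a secreted binding protein, was the other way round, in 16.5% of the T core marker cells and 38.2% of the rest, as was Cd34, in 38.4% of the T core marker cells and 74.4% of the rest. With these cells left out of both libraries, 310.0 of the 373 higher genes were still at least 2-fold higher and 284 of the 311 lower genes still lower. The median of the T-lineage list was then 1.52, that of the progenitor list 0.44 and that of the LT-HSC list -0.42. A wider class fixed for this work, cells with at least 3 UMIs over the 12 T or NK markers, took in 85.7% of NPMc+/Flt3-ITD and 55.3% of NPMc+ cells. It also took in 24.8% of Mx and 49.8% of Flt3-ITD cells, so it is not a count of T or NK cells. Nkg7 was the most abundant of the 12 markers in both NPMc+ and NPMc+/Flt3-ITD. Without that class 236 of the 373 and 248 of the 311 genes were still 2-fold apart.

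Proteases of mast cells, basophils and cytotoxic cells were higher as well. Cpa3, mast cell carboxypeptidase, stood at 16.1 CPM in Mx, 79.3 CPM in NPMc+, 42.3 CPM in Flt3-ITD and 549.7 CPM with both lesions and was 6.94-fold higher (interval 6.62 to 7.27), 2.87 in male and 0.58 in female cells on the log2 scale. Mcpt8, a basophil protease, had 3.07 versus 25.1 CPM, Gzmb 9.17 versus 80.6 CPM and Gzma 2.07 versus 44.3 CPM. The Fc receptor chain gene Fcer1g had 81.3 versus 240.4 CPM. Other genes of the list, among them Gata2 at 316 versus 239 CPM and Srgn at 1706 versus 1595 CPM, were not higher, and Ms4a2 was under the floor. A UMI of Cpa3, Gzma, Gzmb or Mcpt8 was found in 17.5% of NPMc+ and 50.5% of NPMc+/Flt3-ITD cells, and within the latter in 80.1% of T core marker cells and 38.6% of the rest. In this list 5 of 11 members at the floor passed 1.5-fold upward and 1 downward. Its median was 0.35 (0.18 in male and 0.0072 in female cells) and became -0.024 without the T core marker cells.

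Myeloid granule genes were mixed. Ctsg, the gene of cathepsin G, stood at 0.668 CPM in Mx, 36.3 CPM in NPMc+, 42.4 CPM in Flt3-ITD and 174 CPM with both lesions, and Clec12a, a myeloid lectin, had 2.10, 4.63, 5.91 and 76.8 CPM. Prtn3 and Elane, granule proteases of the same stage as Ctsg, were lower at 504 versus 300.3 CPM and 25.5 versus 14.8 CPM, and Ms4a3, a gene of granulocyte-monocyte progenitors, was 11.6-fold lower (interval 10.1 to 13.4). Ngp, a neutrophil granule gene, had 0.319 versus 20.6 CPM, with 96.0% of its UMIs in NPMc+/Flt3-ITD held by the top 1% of cells. Here 7 of 16 members at the floor passed 1.5-fold upward and 4 downward. The median was 0.46, 0.97 in male and -0.27 in female cells.

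**Figure D3:**
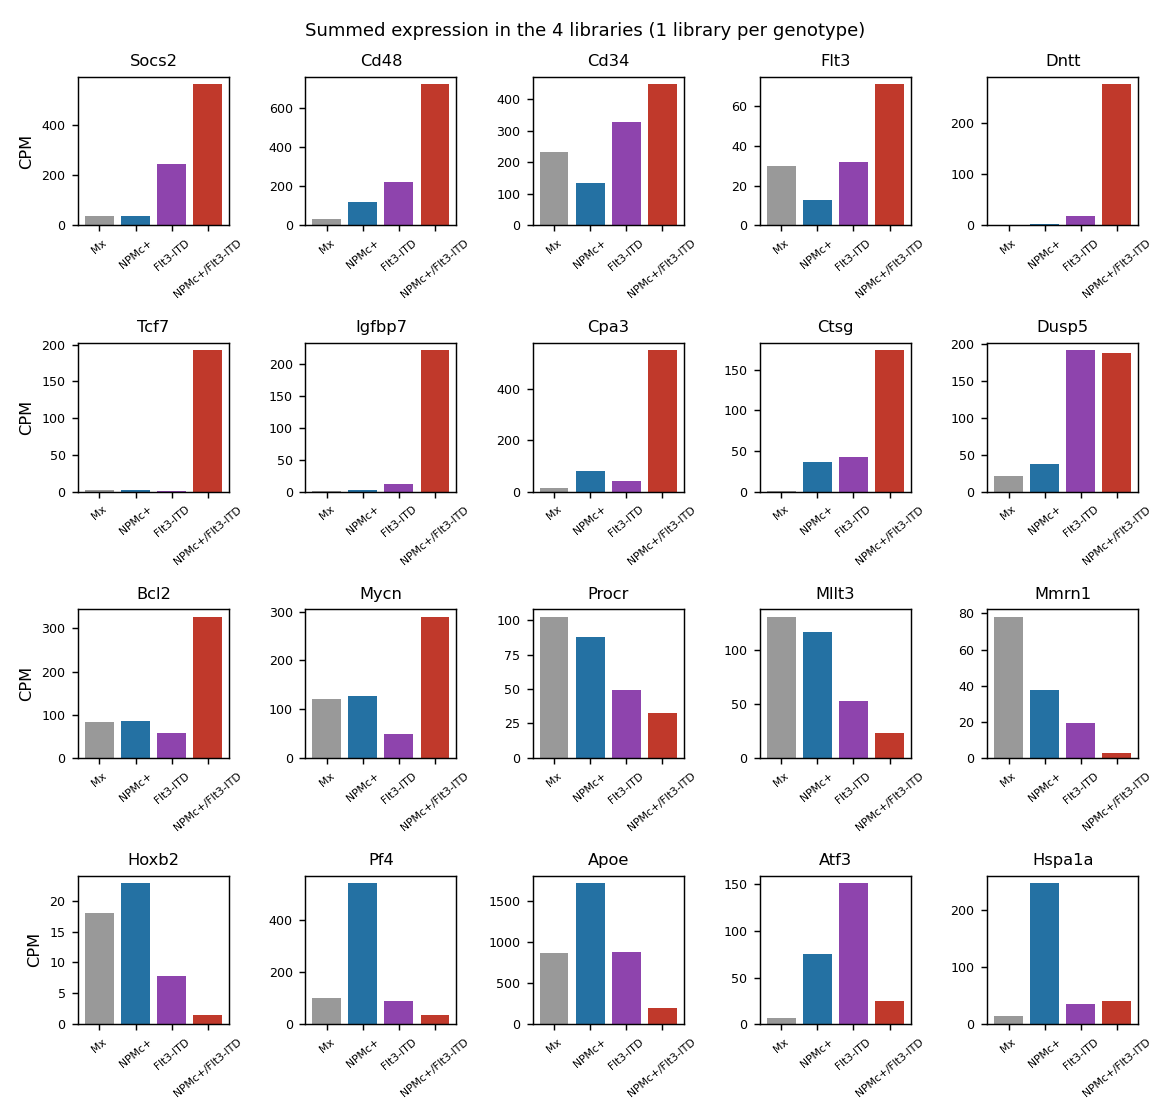
CPM of 20 genes in the 4 libraries, 1 bar per library and genotype with no replicate, each panel on its own linear axis from 0. Socs2, Dusp5 and Cd48 are high in both Flt3-ITD libraries, Dntt, Tcf7, Igfbp7 and Cpa3 in NPMc+/Flt3-ITD, Pf4, Apoe and Hspa1a in NPMc+, and Procr, Mllt3 and Mmrn1 are highest in Mx and lowest in NPMc+/Flt3-ITD.

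Megakaryocyte genes were lower. Pf4, the platelet chemokine (chromosome 5, 90772435 to 90773383, plus strand), stood at 100.3 CPM in Mx, 541 CPM in NPMc+, 86.8 CPM in Flt3-ITD and 35.0 CPM with both lesions, far above the rest in NPMc+, and was 15.5-fold lower (interval 14.5 to 16.5) in NPMc+/Flt3-ITD, -4.31 in male and -1.82 in female cells on the log2 scale. A UMI was found in 37.0% of NPMc+ cells and 7.69% of those with both lesions (59.5% and 15.1% without thinning). Treml1, a platelet granule receptor, had 29.8 versus 3.26 CPM, Selp, the gene of P-selectin, 56.6 versus 6.97 CPM, and Itga2b, platelet integrin alpha IIb, 257 versus 112 CPM. Gata1, the factor of both megakaryocytes and red cells, had 55.5 versus 17.9 CPM, whereas Nfe2, a late platelet factor, had 196 versus 221 CPM. In the list 3 of 28 members at the floor passed 1.5-fold upward and 20 downward, with a median of -1.12, -1.26 in male and 0.059 in female cells.

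Early red cell genes were lower in the sum over all cells. Klf1, the erythroid master factor, had 24.7 versus 5.45 CPM, Aqp1, a water channel of red cells, 58.6 versus 8.79 CPM and Hbb-bt 81.0 versus 18.3 CPM. Apoe, the lipid carrier apolipoprotein E, listed here with them (chromosome 7, 19696109 to 19699188, minus strand), stood at 874 CPM in Mx, 1729 CPM in NPMc+, 877 CPM in Flt3-ITD and 194 CPM with both lesions and was 8.90-fold lower (interval 8.65 to 9.16), -3.80 in male and -0.85 in female cells on the log2 scale, with a UMI in 91.6% of NPMc+ cells and 25.6% of those with both lesions (97.2% and 38.0% without thinning). Car2, a carbonic anhydrase shared with stem cells, had 930.0 versus 793 CPM, and Tfrc, the transferrin receptor, was the 1 higher member at 7.62 versus 20.3 CPM. Of the 14 at the floor 10 were at least 1.5-fold lower. The median was -1.41 in all, -2.09 in male and 0.37 in female cells, where Klf1 and Aqp1 were higher by 1.24 and 0.59.

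Immunoglobulin transcripts were lower in CPM summed over all kept cells. Igkc, the kappa light chain constant gene, had 963 versus 1.48 CPM, but 82.6% of its UMIs in NPMc+ came from the top 1% of cells, while a UMI was found in 41.1% of cells at 3000 UMIs. Jchain, the joining chain of plasma cells, had 107 versus 0.408 CPM, 91.6% of it in the top 1%. Ighm had 278 versus 140.4 CPM and was found in 11.0% and 28% of cells, so its share and its CPM went opposite ways. The top 1% of cells held 87.1% of its UMIs in NPMc+. With the top 1% of cells left out, Ighm was 3.59-fold higher with both lesions. Its log2 ratio was 1.89 in male and -1.07 in female cells. In NPMc+/Flt3-ITD it was found in 63.0% of the T core marker cells and 14.0% of the rest. Of the 5 B-lineage members at the floor 3 were at least 1.5-fold lower and 1, Xbp1, higher, and their median of -0.99 was 0.93 in male cells. Whether plasma cells or free RNA set the NPMc+ level was not tested.

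Genes of DNA replication lay slightly above the median of all genes, and mitotic genes below it in the sum over all cells. Mcm3 and Mcm4, parts of the replicative helicase, had 124 versus 188 CPM and 52.9 versus 83.7 CPM, and Hells 27.8 versus 44.7 CPM. In the G1/S list 5 of 39 members at the floor passed 1.5-fold upward and 0 downward, where 14.0% and 7.61% of all genes did. The upward count was thus near the share of all genes. The list's median was 0.36, and 0.14 under TMM, beside 0.01 for all genes under TMM. In the G2/M list 1 of 34 members at the floor passed 1.5-fold upward and 2 downward, with a median of -0.15 (-0.13 in male and 0.50 in female cells). That median turned to 0.32 when cells above 2 times the median UMIs were left out and to 0.25 without T or NK marker cells. Mki67, the proliferation mark, stood at 28.4 CPM in Mx, 31.6 CPM in NPMc+, 32.0 CPM in Flt3-ITD and 23.7 CPM with both lesions, and Ube2c, which drives mitotic exit, at 20.1, 73.0, 43.6 and 38.1 CPM. The list medians in the Flt3-ITD and Mx pair were 0.26 and 0.54.

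Regulators of G1 and of rest did not share a direction. Cdk6, the G1 kinase that takes stem cells out of rest, stood at 287 CPM in Mx, 411 CPM in NPMc+, 359 CPM in Flt3-ITD and 720.3 CPM with both lesions and was 1.75-fold higher (interval 1.71 to 1.80). Mycn, the MYC family member of stem cells, had 120.5, 126, 48.0 and 290.1 CPM, with Myc itself at 127 versus 129 CPM, and Myb had 188 versus 321 CPM. In the list of G1 kinases and stem cell activation 4 of 19 members at the floor passed 1.5-fold upward and 1 downward, with a median of 0.21 that turned to -0.0029 under TMM. Cdkn1c, which encodes the stem cell quiescence inhibitor p57, stood at 50.9 CPM in Mx, 34.8 CPM in NPMc+, 26.7 CPM in Flt3-ITD and 16.5 CPM with both lesions, 2.11-fold lower (interval 1.88 to 2.37), opposite to Cdkn1a. Cdkn1b, p27, had 50.6 versus 40.5 CPM. Meg3, an imprinted noncoding RNA of quiescent stem cells, stood at 31.5 CPM in Mx, 38.5 CPM in NPMc+, 5.60 CPM in Flt3-ITD and 0 UMIs with both lesions, at least 346-fold lower than in NPMc+ against a floor of 3 UMIs, with an exact lower limit of 281-fold. In NPMc+, 41.0% of its UMIs lay in the top 1% of cells. In the list of CDK inhibitors and quiescence genes 3 of 22 members at the floor passed 1.5-fold upward and 6 downward. Its median was 0.35.

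Survival genes of the BCL2 family did not share a direction. Bcl2 stood at 82.4 CPM in Mx, 84.3 CPM in NPMc+, 58.4 CPM in Flt3-ITD and 327 CPM with both lesions and was 3.88-fold higher (interval 3.70 to 4.07), 2.03 in male and 0.25 in female cells on the log2 scale. Bcl2l1, the gene of BCL-XL, had 22.3 versus 33.7 CPM and Mcl1 199 versus 133 CPM. Pmaip1, the gene of the death protein NOXA, had 7.46 versus 24.5 CPM but was lower, at -0.93, in female cells. Plk2, a p53-induced kinase, had 34.1 versus 8.53 CPM, whereas Mdm2 and Bax, other p53 targets, had log2 ratios of 0.48 and 0.14, under 1.5-fold. In the p53 list 4 of 15 members at the floor passed 1.5-fold upward and 1 downward, with a median of 0.34 (0.38 in male and 0.21 in female cells). In the list of apoptosis regulators 5 of 15 members at the floor passed 1.5-fold upward and 1 downward, with a median of 0.38.

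The immediate-early genes, which also rise when tissue is dissociated, lay below the median of all genes at 0.05, which became -0.17 under TMM. In the Flt3-ITD and Mx pair their median was 1.76, with 27 of 31 at least 1.5-fold higher there, where 4.87% of the 6770 genes were, and 2 of 31 here. Fos, the most abundant, stood at 1164 CPM in Mx, 3087 CPM in NPMc+, 4125 CPM in Flt3-ITD and 3621 CPM with both lesions and Jun at 1208, 2238, 3539.5 and 2334 CPM. Both were above Mx in all 3 mutant libraries. Atf3, a stress-induced factor, stood at 6.54 CPM in Mx, 75.8 CPM in NPMc+, 152 CPM in Flt3-ITD and 24.9 CPM with both lesions and was 3.04-fold lower (interval 2.78 to 3.33), and Nr4a1, a factor of stem cell rest, had 45.6, 159, 659 and 96.1 CPM. Hspa1a, an inducible HSP70 gene with a close copy, had 14.6, 247, 35.8 and 40.2 CPM, 6.14-fold lower (interval 5.76 to 6.56), while the constitutive Hspa8 had 2364 versus 2657 CPM. The median of the heat shock and unfolded protein list was -0.0011. Xbp1, its 1 higher member and a factor of the unfolded protein response, had 91.4 versus 231 CPM.

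Inflammatory genes lay above the median of all genes and, in all cells and in male cells, interferon genes below it. Nfkb1, an NF-kB subunit, had 96.1 versus 199.9 CPM, its target Tnfaip3, A20, 35.4 versus 61.7 CPM, and the activation antigen Cd69 119.9 versus 333 CPM. In the NF-kB list 9 of 18 members at the floor passed 1.5-fold upward and 1 downward, with a median of 0.59 (0.61 in male and 0.45 in female cells). The interferon list had a median of -0.28 in all, -0.32 in male and 0.24 in female cells, with 3 of 35 at least 1.5-fold higher and 1 lower. Ifitm1, a gene of the interferon-induced transmembrane family whose members resemble each other, was among the higher, at 1319 CPM in Mx, 958 CPM in NPMc+, 2310.0 CPM in Flt3-ITD and 3435 CPM with both lesions, while its relative Ifitm3 had 999 versus 691 CPM. The antigen presentation list had 6 of 23 members higher and 0 lower, with a median of 0.24; Tap2, a peptide transporter, had 198 versus 364 CPM but was at -0.46 in female cells.

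Secreted and adhesion genes included some of the widest ratios. Igfbp7 stood at 0.477 CPM in Mx, 2.99 CPM in NPMc+, 11.8 CPM in Flt3-ITD and 222 CPM with both lesions and was 74.1-fold higher (interval 59.0 to 94.3), 6.42 in male and 3.84 in female cells on the log2 scale. Sparc, a matrix protein gene, had 0.430, 0.160, 5.09 and 33.0 CPM, and Gdf10, a TGF-beta family ligand, 37.9 CPM against 0 UMIs in NPMc+, at least 317-fold higher against the same floor, with an exact lower limit of 257-fold. Spp1, osteopontin, had 3.95 versus 32.1 CPM and Ccl3, a chemokine gene, 15.6 versus 40.3 CPM. Itga4, the integrin chain of VLA-4, had 50.2 versus 149 CPM, Selplg, the selectin ligand PSGL-1, 103 versus 330.5 CPM and Pecam1 36 versus 93.2 CPM. In the adhesion list 9 of 20 members at the floor passed 1.5-fold upward and 3 downward, and in the list of secreted factors 9 of 17 members at the floor passed 1.5-fold upward and 3 downward, with a median of 0.67 (0.64 in male and 0.022 in female cells). The stromal markers Col1a1, Dcn and Lum were at 0 UMIs in NPMc+/Flt3-ITD, and the 7 found summed to 8.82 CPM for NPMc+ and 29.0 with both lesions. Eng, a TGF-beta co-receptor, and Smad7, its inhibitor, were the 2 lower members of the TGF-beta list, at 91.1 versus 58.8 CPM and 86.9 versus 55.8 CPM, against 2 higher of 10 at the floor. Akr1c12 and Akr1c13, neighbouring aldo-keto reductase genes between which reads may be split, had 6.02, 3.79, 15.6 and 302 CPM and 59.9, 36.7, 78.5 and 412 CPM over the 4 libraries in the order above.

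Chromatin regulators mutated in leukaemia differed little. Of 32 members 5 were at least 1.5-fold higher and 0 lower, with a median of 0.36. Dnmt3b, a DNA methyltransferase gene, had 30.3 versus 70.4 CPM, Runx1 97.6 versus 165 CPM and Idh2 187 versus 325 CPM. Dnmt3a and Kmt2a, by contrast, were at log2 ratios of 0.41 and 0.25. Npm1 stood at 1628 CPM in Mx, 1820.5 CPM in NPMc+, 1724 CPM in Flt3-ITD and 2180.5 CPM with both lesions.

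Ribosomal protein transcripts took up 28.7% of UMIs in NPMc+ and 20.4% of those with both lesions, beside 30.2% in Mx and 28.2% in Flt3-ITD. Of 80 members 47 were at least 1.5-fold lower and 0 higher, with a median of -0.84, -0.85 in male and -0.71 in female cells. In the Flt3-ITD and Mx pair the median was -0.093. Rpl23a, a large subunit protein gene, stood at 4421 CPM in Mx, 3690.3 CPM in NPMc+, 3509.7 CPM in Flt3-ITD and 899.9 CPM with both lesions and was 4.10-fold lower (interval 4.04 to 4.16), and Rpl27 had 1938, 1446, 1605 and 322 CPM. The genes Rps27rt and Rps23-ps1 are near copies of ribosomal protein genes, and their 275 versus 38.5 CPM and 306 versus 44.5 CPM may hold reads of the parent genes. Genes that build ribosomes had a median of 0.086 (-0.13 under TMM), with 0 of 44 higher and 2 lower.

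Genes of oxidative phosphorylation, the mitochondrial respiratory chain, were lower, more often so where their transcripts were short. Ndufb4 and Ndufa1, small subunits of complex I, had 62.3 versus 12.1 CPM and 139 versus 45.8 CPM. Of 61 members 28 were at least 1.5-fold lower and 0 higher, with a median of -0.41. The 34 members with a principal transcript under 1000 bases had a median of -0.77, with 21 at least 1.5-fold lower, and the other 27 one of 0.29, with 7 lower. Ribosomal protein genes under and over that length had -1.16 and -0.50. Across all genes with a length, the 43 under 500 bases had a median of -1.23 and 32 of them (74.4%) were at least 2-fold lower, including the spliceosome gene Snrpg at 429.5 versus 125 CPM and Ost4, a protein glycosylation gene, at 315 versus 90.5 CPM. The 33 of these that encode no ribosomal protein had -1.18. Genes from 500 to under 1000 bases had a median of -0.029 and those of 4000 bases or more 0.30. For the shortest class the median was -1.22 in male and -1.17 in female cells, and -0.089 in the Flt3-ITD and Mx pair. Genes of 4000 bases or more had a median of -0.18 in that pair. Over all genes with a length, length and log2 ratio had a Spearman correlation of 0.18 here and -0.24 in that pair. Transcript length thus moved with the ribosomal and respiratory results in these 2 libraries, and its part in them was not tested. Glycolysis and hypoxia genes, 1 of 26 under that length, had a median of 0.43, with 10 at least 1.5-fold higher and 2 lower. Aldoc, a glycolytic aldolase gene, stood at 15.3 versus 70.0 CPM, Egln3, an oxygen sensor, at 13.2 versus 45.4 CPM and the hexokinase gene Hk2 at 55.2 versus 11.9 CPM.

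**Figure D4:**
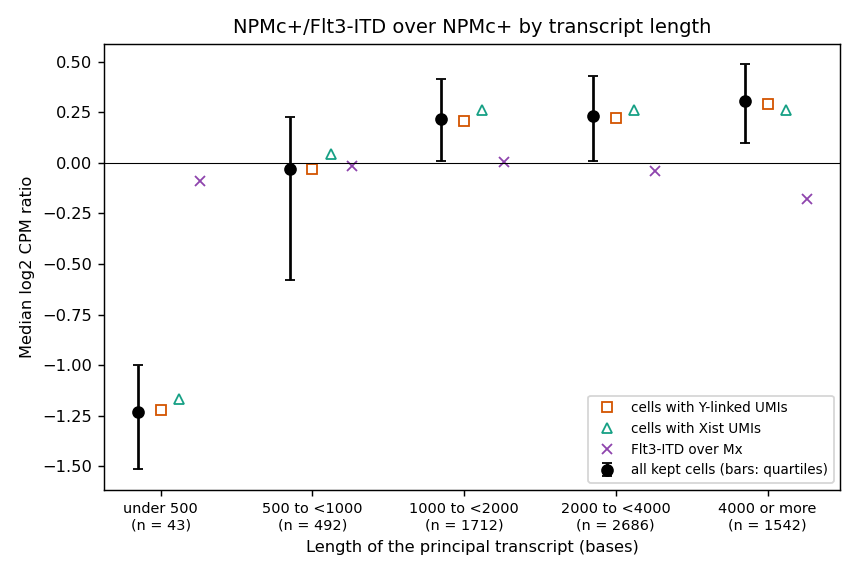
Median log2 CPM ratio of genes by length of their principal transcript, NPMc+/Flt3-ITD over NPMc+ (black, bars give the quartiles over genes), male and female cells apart, and Flt3-ITD over Mx as crosses. The 43 genes under 500 bases lie at -1.23 in all kept cells, with both sexes beside them, and at -0.089 in the other pair. Genes of 4000 bases or more lie at 0.30 in all kept cells and at -0.18 in the other pair.

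Male and female cells did not give the same picture. Of the 373 higher genes, 368 were at least 2-fold higher between male cells and 111 between female cells, where 24 had the opposite sign. Of the 311 lower genes, 307 stayed lower between male and 186 between female cells, with 22 opposite. The median log2 ratio of the higher genes was 1.66 in male and 0.68 in female cells, and that of the lower genes -1.64 and -1.18. In female cells 363 of the 373 and 239 of the 311 went less far in the called direction than in male cells, genes of opposite sign included. The floor of 3 UMIs also limits ratios where cells are few. Meg3, with 59 versus 0 UMIs in female cells, stood at -2.62 there and at -8.33 in male cells. Both sets of genes were called on the sum over all cells, in which male cells outnumbered female cells. Their closeness to the male ratios was thus set in part by that choice. Myl10, a myosin light chain gene with 176 CPM in NPMc+ and 666 CPM with both lesions, was 3.77 in male and -0.90 in female cells. Socs2, by contrast, kept 2.95 and Cd48 1.36 in female cells, at 32.7 and 252 CPM and 127 and 326 CPM. Female cells of NPMc+/Flt3-ITD had a median of 6 Xist UMIs and those of NPMc+ 11, and with at least 3 Xist UMIs required 154 and 430.0 were left. Genotype, library, animal and sex could not be separated for these values.

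**Figure D5:**
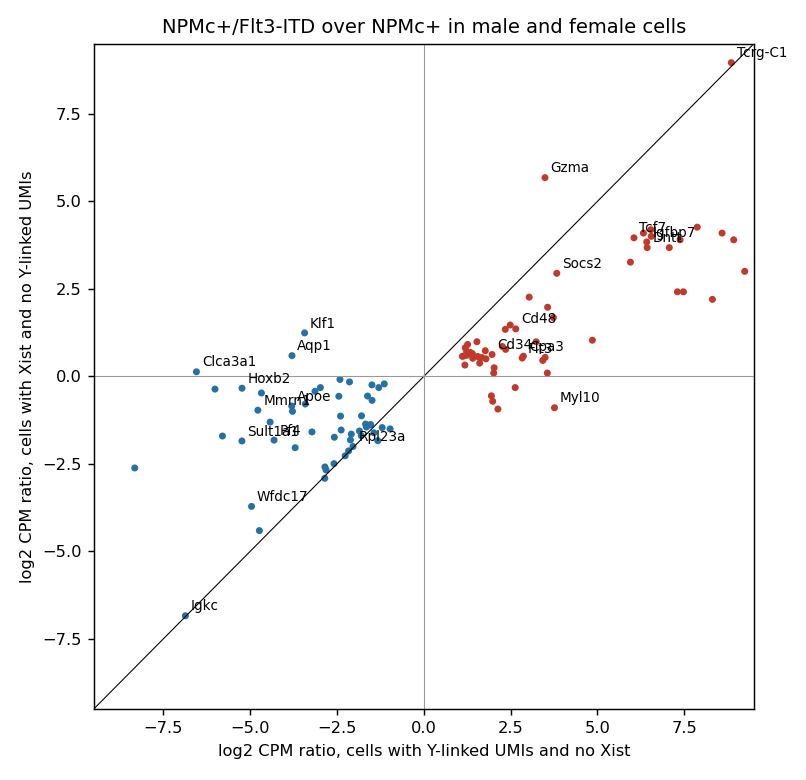
Log2 CPM ratio of NPMc+/Flt3-ITD over NPMc+ in cells called male (horizontal) and female (vertical), for the named genes at least 2-fold higher (red) or lower (blue) in all kept cells; the diagonal is equality. Most points lie nearer 0 on the female axis, Myl10, Klf1 and Aqp1 change sign, and Rpl23a and Igkc lie near the diagonal.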

How the data were processed

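Processed files of single-cell RNA libraries of sorted LT-HSC were used, 1 per genotype and 4 in all. The values are UMI counts per gene and barcode as the authors deposited them. Per the submitters' processing notes, the tools were STARsolo and STAR 2.7.0c and the build mm10; strand setting, annotation release and barcode calling are not given in the sources used here. Barcodes with under 1000 UMIs, under 500 genes or over 10% mitochondrial UMIs were left out, and no doublet caller was run. UMIs were summed over cells and scaled to CPM. Genes with at least 20 CPM in 1 library of the pair were compared by the ratio, with an exact 95% Clopper-Pearson interval that covers counting error only. With 1 library per group there is no test. Shares of cells were taken after thinning to 3000 UMIs, and the computation was tested on simulated data. TMM factors came from edgeR 4.0.16 in R 4.3.3; all else ran in Python 3.11.15 with numpy 2.4.6, scipy 1.17.1 and pandas 2.3.3.

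Genes were named by rule: the 12 highest and 12 lowest CPM ratios, the 12 largest rises and the 12 largest falls in share of cells, the 4 members of each list furthest from no difference, and, whatever their values, Procr, Hlf, Cd34, Cd48, Flt3, Socs2, Cish, Cdk6, Cdkn1c, Mki67, Npm1, Hoxa9 and Meis1. The rankings left out clone and prediction names, Y-linked and mitochondrially encoded genes, Xist, Tsix, and gene segments of immunoglobulins and T cell receptors. Results of 5 genes that this rule gives are not reported here. Other list members named beside them were chosen after their values were seen. The libraries compared, the lists and the markers were chosen with earlier results of these data known. The alternatives were 13: cell filters, deep cells out, each sex alone, T or NK marker cells out, stem marker cells only, 2 scalings, 2 floors, the top 1% of cells of each gene out, and 2 added after seeing the data (T core marker cells out, and female cells with at least 3 Xist UMIs). Promoters came from RefSeq (GRCm38.p6).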

Additional observations from a re-analysis of the deposited data

Results flagged for a closer look

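For 12 of the named genes the ratio of NPMc+/Flt3-ITD to NPMc+ and the ratio of Flt3-ITD to Mx were each at least 2-fold and of opposite sign. With 1 library per genotype the difference between these ratios was not tested. Each pair below gives the log2 ratio with NPMc+ present first and that without NPMc+ second.

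Genes higher when Flt3-ITD was added to NPMc+ and lower when it was added to control cells were Tcf7, the T-lineage factor, at 6.23 and -1.45, Ngp, a neutrophil granule gene, at 6.01 and -2.22, and Mycn at 1.20 and -1.33. Tcf7 had 2.24 CPM in Mx and 0.819 in Flt3-ITD, so its second ratio rests on low levels.

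The immunoglobulin genes Igkc and Jchain stood at -9.34 and 6.75 and at -8.03 and 4.67, both with most of their UMIs in the top 1% of NPMc+ cells. Ms4a3, a gene of granulocyte-monocyte progenitors, had -3.54 and 1.59.

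A group of stress and signal-induced genes was lower in the first comparison and higher in the second. Atf3 had -1.60 and 4.54, Maff, a small MAF factor gene, -1.19 and 2.47, and Fosl2, an AP-1 subunit gene, -1.31 and 1.15. Plk2 had -2.0 and 1.97, Hspa1a -2.62 and 1.30, and Spry1, the RAS pathway inhibitor, -1.06 and 2.30.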

How the results depend on the processing

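The count of 373 higher genes was 157 in female cells, 172 in female cells with at least 3 Xist UMIs and 207 at a floor of 50 CPM, where fewer genes were compared, and 275 to 533 under the other alternatives. The count of 311 lower genes ranged from 212 to 431. Of list medians at least 0.2 from 0, those that changed sign in female cells, and then with at least 3 Xist UMIs, were granule and myeloid (-0.27, -0.39), megakaryocyte (0.059, 0.22), erythroid (0.37, 0.41) and interferon (0.24, 0.28) genes. With at least 3 Xist UMIs alone, secreted factors (-0.053) and mitochondrially encoded genes (-0.029) did so too. The B-lineage median was 0.82 without the deepest cells, 0.93 in male cells, 0.43 in stem marker cells and 0.90 without the top 1% of cells. The mast cell median was -0.024 without T core marker cells and -0.021 at 50 CPM, the megakaryocyte median 0.092 without T or NK marker cells and the interferon median 0.13 at 50 CPM. Under TMM the FLT3 and JAK-STAT list (-0.0026) and the G1 kinases (-0.0029) changed sign. Medians nearer 0, among them the G2/M, TGF-beta, heat shock, immediate-early and ribosome biogenesis lists, also changed sign under some alternatives. Of the 111 named genes at least 2-fold apart, those that changed sign in female cells, and then with at least 3 Xist UMIs, were Clca3a1 (0.13, 0.26), Myl10 (-0.90, -1.10), Aqp1 (0.59, 0.69), Klf1 (1.24, 1.35), Ccl3 (-0.56, -0.88), Perp (-0.32, -0.47), Pmaip1 (-0.93, -1.12) and Id2 (-0.71, -1.23). With at least 3 Xist UMIs Dusp3 (0.14), Hspa1a (0.079) and Spp1 (-0.11) did too. The cause was not tested. Of the 1680 values of single genes under the alternatives, 769 stayed within the counting interval and 892 moved beyond it. Another 19, of named genes at least 2-fold apart, changed sign. Named genes under 2-fold apart that changed sign are not among the 19 but among the 892. Examples are Ighm, at -0.99 in all and 1.89 in male cells, and Aurkb, at -0.67 in all and 0.20 in female cells. Female cells of NPMc+/Flt3-ITD are few, 179, and 1 library per genotype limits every comparison. No paired analysis was possible because each genotype has 1 library and the labels give no replicate numbers.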
